A study of Mus musculus with 6 samples.

Results

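The 10 genes examined here belong to the immunoproteasome or to the loading of peptides onto MHC class I molecules, and were followed in the liver of KRAP-/- mice and of their wild-type littermates. They were the immunoproteasome catalytic subunits Psmb8, Psmb9 and Psmb10, the proteasome activator subunits Psme1 and Psme2, the peptide transporter Tap1 and Tap2, the loading factor Tapbp, the class I light chain B2m and the peptide-trimming enzyme Erap1. A probeset (a group of short oligonucleotide probes for the same transcript) was counted for a gene only where the array annotation named that gene alone. By this rule 9 of the 10 genes had 16 probesets, among 18193 genes and 45037 probesets on the array. The probeset of Psme2 is annotated to a second gene as well, so that Psme2 has no value here. KRAP-/- mice carry a germline deletion of exons 11 to 16 of KRAP (current symbol Itprid2) in all cells and had been backcrossed to C57BL6/J for 6 generations. The wild-type mice carried no deletion. Livers came from 3 littermate pairs, 1 mouse of each genotype per pair, at 32 weeks of age on normal chow, and each was hybridised to its own Affymetrix Mouse Genome 430 2.0 array.

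Proteasomes degrade cytosolic proteins, and some of the resulting peptides are shown at the cell surface by MHC class I. In immune cells, and in most other cells under interferon, the catalytic subunits Psmb6, Psmb7 and Psmb5 of the standard core are exchanged for Psmb9, Psmb10 and Psmb8, which changes the peptides produced. The Tap1-Tap2 transporter then moves peptides into the endoplasmic reticulum, where tapasin (the product of Tapbp) helps to place them on a heavy chain bound to B2m. Hepatocytes carry class I at low density, whereas Kupffer cells, the resident macrophages of the liver, and lymphocytes carry more.

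Psmb8, Psmb9, Tap1 and Tap2 are direct neighbours within the MHC on mouse chromosome 17, which also holds Tapbp. Psmb9 and Tap1 are transcribed away from each other, and the stretch between their RefSeq start sites (GRCm38.p6, chr17:34187331-34187555, shown on the plus strand, which is that of Tap1) is printed because it lies upstream of both genes, whose signals were lower in every KRAP-/- liver. It has 225 bases and a GC content of 61.33%.
Psmb9-Tap1: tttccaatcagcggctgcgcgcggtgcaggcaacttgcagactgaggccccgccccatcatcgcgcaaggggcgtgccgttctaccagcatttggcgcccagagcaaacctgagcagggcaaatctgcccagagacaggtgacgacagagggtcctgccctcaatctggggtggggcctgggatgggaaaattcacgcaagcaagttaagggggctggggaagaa

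The RefSeq promoter windows of the members, from 250 bases before the start site to 50 after it, were searched on both strands for the core of the interferon-stimulated response element, GAAANNGAAA, and for the gamma-activated site, TTCNNNGAA. Windows were at hand for 9 of the 10 genes, Tap2 being the exception. The first motif was found in 3 of these 9 genes (B2m, Erap1 and Psme1) and in 3.443% of all 32851 windows. The second was found in Psmb8 alone among the members and in 8.298% of all windows. Neither was found in the stretch between Psmb9 and Tap1. The 4 matches are shown with the motif in capitals and with 10 bases on each side, on the plus strand, which is the strand of each of the 4 genes. Positions count from the start site, the first transcribed base being 1 and the base before it -1. The B2m match (chr2:122147538-122147567) lies at -139 to -130, that of Erap1 (chr13:74639839-74639868) at -4 to 6, that of Psme1 (chr14:55578493-55578522) at 10 to 19 and that of Psmb8 (chr17:34198088-34198116) at -97 to -89. In Erap1 and Psme1 the motif reads on the minus strand, so that its complement stands in capitals. A match describes the letters only.
B2m: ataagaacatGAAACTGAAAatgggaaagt
Erap1: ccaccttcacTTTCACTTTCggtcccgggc
Psme1: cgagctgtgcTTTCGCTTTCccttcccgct
Psmb8: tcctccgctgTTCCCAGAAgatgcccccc

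Signals are given below in units of the median signal of their own array, and the genotypes are compared at the same probeset. The summed signals of gene lists add up different probesets, so that the brightest weigh most in them. Array medians before scaling were 20.2 to 23.4 in KRAP-/- and 19.1 to 22.6 in wild-type, and the 3'/5' signal ratio of the beta-actin control, which rises as RNA degrades, ran from 2.28 to 2.32 in KRAP-/- and from 2.01 to 2.65 in wild-type. The KRAP probeset had a signal of 21.0 ± 0.850 in KRAP-/- and 23.6 ± 1.15 in wild-type (SD, n = 3 each), a log2 difference of -0.17 with a limma adjusted p of 0.44. Adjusted p-values are over all probesets tested on the array, and one under 0.05 counted as passed. Where this probeset lies relative to the deleted exons is not given in the sources used here, so it does not check the genotypes. The hepatocyte markers, Alb among them, were bright on all 6 arrays.

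The 3 catalytic subunits of the immunoproteasome fell in KRAP-/- liver. On the fitted log2 scale Psmb9 fell by 46.7%, Psmb8 fell by 43.0% and Psmb10 fell by 31.0%. Psmb8 encodes beta5i, the chymotrypsin-like subunit. Its bright probeset read 17.9, 16.1 and 15.6 in wild-type mice 1, 2 and 3 and 9.73, 9.61 and 8.84 in their KRAP-/- littermates. All 3 KRAP-/- livers lay below all 3 wild-type livers, and the ratio to the littermate was 0.543, 0.598 and 0.568. The means were 9.39 ± 0.482 and 16.5 ± 1.24 (SD, n = 3 each), with a log2 difference of -0.81 (SE 0.11, 95% interval -1.05 to -0.57, limma adjusted p = 0.0084). A second Psmb8 probeset, of a kind whose probes can match other transcripts, was close to the limit for testing, a mean signal of 0.5. It read 1.34, 1.06 and 0.752 in wild-type and 0.323, 0.895 and 0.802 in KRAP-/- livers, lower in 2 of the 3 pairs. Its log2 difference of -0.73 (SE 0.51) did not pass (adjusted p = 0.54), and it was -0.08 without pair 1 and -1.15 without pair 3.

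Psmb9 encodes beta1i. It read 17.7, 15.99 and 15.6 in wild-type and 10.6, 8.15 and 7.80 in KRAP-/- livers. The genotypes did not overlap, and the pair ratios were 0.595, 0.510 and 0.499. The means of 8.83 ± 1.5 and 16.5 ± 1.12 gave the lowest log2 difference among the members, -0.91 (SE 0.11, 95% interval -1.16 to -0.66, adjusted p = 0.0064).

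Psmb10 encodes beta2i and lies on chromosome 8, away from the MHC. It read 29.1, 25.8 and 24.1 in wild-type and 20.5, 19.5 and 14.8 in KRAP-/- livers. Again no KRAP-/- liver reached a wild-type one, and the pair ratios were 0.704, 0.757 and 0.616. The log2 difference was -0.54 (SE 0.10, 95% interval -0.76 to -0.31, adjusted p = 0.040). This call was the least secure of the 3, since the adjusted p was 0.068 without division by the array median, 0.063 after quantile normalisation, 0.095 without the littermate block, 0.070 without pair 1 and 0.065 without pair 3. The calls of Psmb8, Psmb9 and Psmb10 were all lost when no limit was set on dim probesets (adjusted p = 0.38 for each) and when the intensity trend was left out (0.42, 0.42 and 0.43).

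**Figure D1:**
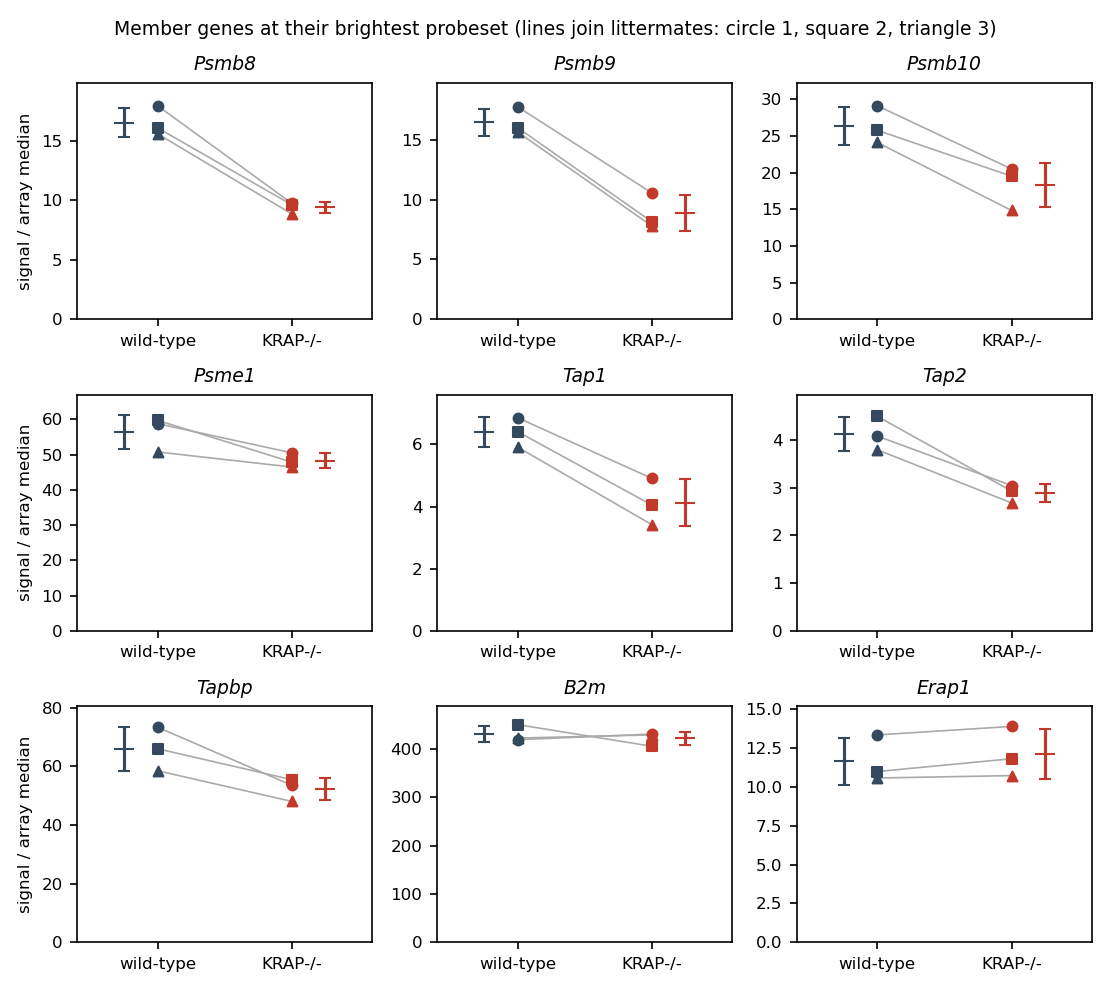
Signal of the 9 genes at the brightest probeset of each, in units of the array median (vertical axis from 0), in wild-type (blue) and KRAP-/- (red) livers. Lines join littermates (circle pair 1, square pair 2, triangle pair 3) and the bars at the sides give mean ± SD (n = 3 each). Psmb8, Psmb9, Psmb10, Psme1, Tap1, Tap2 and Tapbp sit lower in all 3 KRAP-/- livers than in any wild-type liver, whereas B2m and Erap1 overlap.

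The catalytic subunits that the immunoproteasome subunits replace served as a comparison. Psmb5 had a log2 difference of -0.09 (adjusted p = 0.68), Psmb6 of -0.01 (0.97) and Psmb7 of -0.13 (0.47), none past the threshold. The 95% interval of Psmb7, the lowest of them, ran from -0.30 to 0.04, above the whole interval of Psmb8 and of Psmb9. Psmb5, Psmb6 and Psmb7 were each given by 1 probeset. Psmb7 was lower in all 3 pairs and without overlap, at 141 to 150 in KRAP-/- and 158 to 165 in wild-type livers. Among all tested probesets 12.3% had no overlap with KRAP-/- lower. Psmb5 and Psmb6 overlapped. The summed signal of the 3 subunits was 253 to 277 in KRAP-/- and 278 to 294 in wild-type livers.

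The activator PA28, a ring of Psme1 and Psme2 subunits that opens the proteasome core, was represented by Psme1. It read 58.8, 59.7 and 50.7 in wild-type and 50.5, 47.9 and 46.5 in KRAP-/- livers. The genotypes did not overlap, although KRAP-/- mouse 1 and wild-type mouse 3 nearly met, and the pair ratios were 0.859, 0.802 and 0.916. The log2 difference of -0.22 (SE 0.09, 95% interval -0.41 to -0.03) did not pass (adjusted p = 0.27).

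Tap1 and Tap2 form the transporter that carries peptides into the endoplasmic reticulum. Tap1 read 6.86, 6.41 and 5.91 in wild-type and 4.91, 4.05 and 3.42 in KRAP-/- livers, with pair ratios of 0.716, 0.632 and 0.578. Its log2 difference was -0.65 (SE 0.14, 95% interval -0.97 to -0.32), which missed the threshold with an adjusted p of 0.071. The other 3 probesets of Tap1 were dim, with no array above 0.477, and were not tested. Tap2 read 4.08, 4.49 and 3.79 in wild-type and 3.04, 2.93 and 2.68 in KRAP-/- livers, with pair ratios of 0.746, 0.652 and 0.707. Its log2 difference of -0.51 (SE 0.16, 95% interval -0.88 to -0.15) did not pass (adjusted p = 0.19). For both genes every KRAP-/- liver lay below every wild-type liver.

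Tapbp encodes tapasin, which bridges the transporter and the class I molecule. Its brighter probeset read 73.3, 65.9 and 58.5 in wild-type and 53.5, 55.4 and 48.0 in KRAP-/- livers. Its dimmer one read 6.28, 6.19 and 6.22 in wild-type and 4.33, 5.66 and 4.62 in KRAP-/- livers. In neither did the genotypes overlap, and the log2 differences were alike, -0.33 (SE 0.09, adjusted p = 0.11) and -0.36 (SE 0.15, adjusted p = 0.29), without passing.

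B2m, the light chain that every class I molecule carries, showed no difference that passed. The probeset with the higher signal read 419, 450 and 422 in wild-type and 430, 405 and 429 in KRAP-/- livers, with overlapping genotypes and a log2 difference of -0.03 (95% interval -0.21 to 0.15, adjusted p = 0.89) whose sign was positive without division by the array median and without pair 2. The other read 431, 416 and 455 in wild-type and 424, 395 and 392.02 in KRAP-/- livers, a log2 difference of -0.11 (95% interval -0.28 to 0.07, adjusted p = 0.57).

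Erap1 trims peptides inside the endoplasmic reticulum to the length that class I accepts, and its probesets differed in sign. The brighter one read 13.3, 10.97 and 10.6 in wild-type and 13.9, 11.8 and 10.7 in KRAP-/- livers, higher in each KRAP-/- mouse than in its littermate (log2 difference 0.06, 95% interval -0.18 to 0.30, adjusted p = 0.83). The other read 11.6, 13.5 and 11.7 in wild-type and 11.03, 10.4 and 10.3 in KRAP-/- livers, lower in each pair and with no overlap (log2 difference -0.21, 95% interval -0.46 to 0.05, adjusted p = 0.45).

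**Figure D2:**
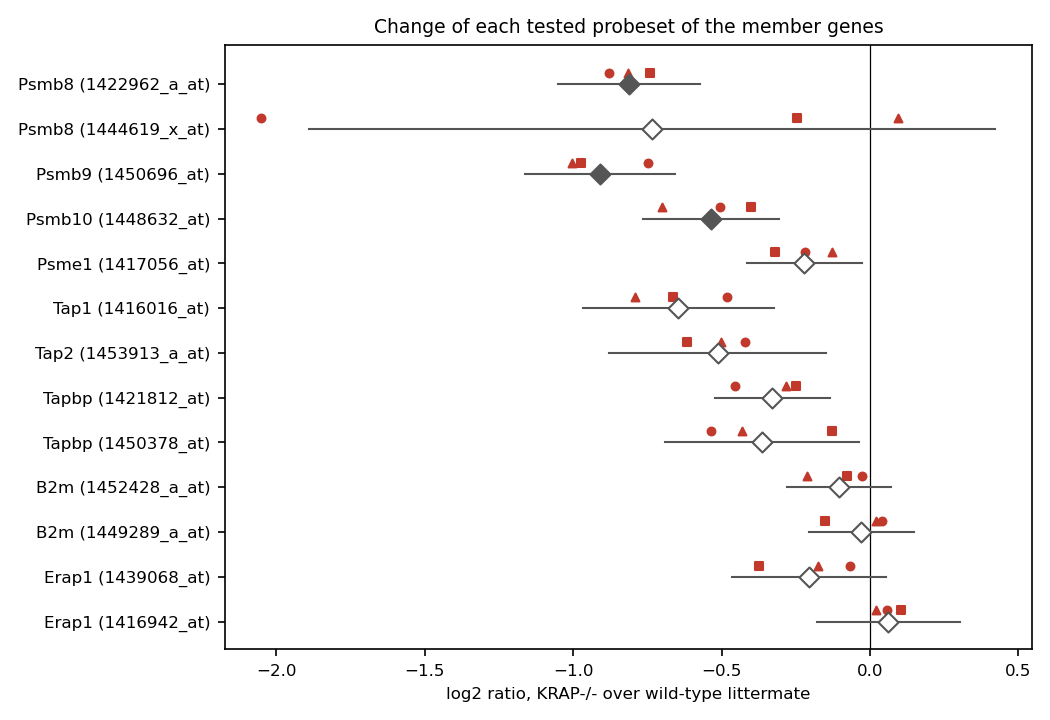
Log2 ratio of KRAP-/- over wild-type littermate (horizontal axis) for the 13 tested probesets of the member genes. Small red symbols are the pairs (circle 1, square 2, triangle 3), diamonds the limma estimate, filled where the adjusted p was under 0.05, and lines its 95% interval. The filled estimates are Psmb8 at -0.81, Psmb9 at -0.91 and Psmb10 at -0.54. The estimates of the B2m and Erap1 probesets lie nearest to 0. Their intervals cross 0, as does that of the dim second Psmb8 probeset (-1.89 to 0.42).

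Of the 16 probesets, 13 had a mean signal of at least 0.5 and were tested, and the 3 left out were all of Tap1. By limma 3 of the 13 were lower in KRAP-/- and 0 higher, where 0.978% of all 28531 probesets tested were lower and 0.431% higher. At an unadjusted p under 0.05, 8 of the 13 were lower, against 9.3% of all tested probesets, and 0 were higher. In 10 of the 13 the KRAP-/- signal was lower in all 3 pairs, against 22.4% of tested probesets, and in 9 of the 13 the genotypes did not overlap with KRAP-/- lower, against 12.3%. A filter modelled on that of the study, a ratio of at least 1.5 in the same direction in each pair with no limit on dim probesets, took 2 of the 16 probesets as lower (Psmb8 and Psmb9) and 0 as higher, against 2.88% and 2.3% of 45037 probesets. Any further limit that the study set is not given in the sources used here, so that this filter is not the study's own. Without pair 1, it took Tap1 as well. At the brightest probeset of each gene the median log2 difference of the 9 genes was -0.51, with medians of -0.45, -0.40 and -0.50 in pairs 1, 2 and 3, where the median of all tested probesets was -0.04. The probesets of neighbouring genes and of 1 gene come from the same 6 livers and are not independent replicates. The members were chosen with earlier results of these data known, so that their shares beside those of all probesets are a description and not a test.

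Other genes of the proteasome and of the class I pathway were described by lists, at the brightest tested probeset of each gene. None of these 70 tested genes passed limma in either direction. At an unadjusted p under 0.05 there were 15 lower, against 9.3% of all tested probesets, and 0 higher, for which the share over all probesets was not counted. The lower ones were 3 of 6 class I heavy chains, 3 of 7 other activators and assembly chaperones and 4 of 18 regulators of class I genes. The regulatory 19S particle had 3 of 17 and the loading complex partners 2 of 8. The standard catalytic subunits had 0 of 3 and the other core subunits 0 of 11. The proteasome core without its catalytic subunits had 11 tested genes with a median log2 difference of -0.03 and a range of -0.10 to 0.12, Psma6, an alpha ring subunit, being farthest from 0 (0.12, adjusted p = 0.54). The 17 tested genes of the regulatory 19S particle, which recognises and unfolds ubiquitinated proteins, had a median of -0.03, and Psmd14, its deubiquitinase, had the value farthest from 0 (-0.40, adjusted p = 0.20). Other activators and the assembly chaperones had a median of -0.18 over 7 genes, with the assembly chaperone Psmg4 at -0.51 (adjusted p = 0.17).

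The class I heavy chains, which share much of their sequence, so that their probesets may read several of them, had 6 tested genes of 14 listed and a median of -0.16. H2-T3, a dim nonclassical chain, was farthest from 0 (0.55, SE 0.53, adjusted p = 0.68). H2-M3 was at -0.51 (SE 0.14, limma adjusted p = 0.13). The classical chains H2-K1 and H2-D1 were at -0.27 (adjusted p = 0.15) and -0.26 (adjusted p = 0.15). Over all their tested probesets, none of which passed, the 4 of H2-K1 ranged from -0.53 to -0.11 and the 8 of H2-D1 from -0.26 to 0.39. At the brightest probeset H2-M3, H2-K1 and H2-D1 did not overlap between the genotypes, with KRAP-/- lower. The other tested chains overlapped. Among all tested probesets 12.3% had no overlap with KRAP-/- lower. The summed signal of the 6 chains was 767 to 858 in KRAP-/- and 873 to 985 in wild-type livers. The 8 partners of the loading complex, such as calreticulin and Pdia3, had a median of -0.16, with the glucosidase subunit Ganab at -0.27 (adjusted p = 0.30). Among 18 tested regulators of class I genes, the median was -0.12. These were interferon receptors, their kinases, transcription factors and Socs1, a suppressor of cytokine signalling. Rfxank, a subunit of the RFX factor that binds MHC promoters, was at -0.85 (adjusted p = 0.083). Its dimmer tested probesets were at -0.23 (adjusted p = 0.58) and -0.40 (0.64), and the RFX subunits Rfx5 and Rfxap at -0.12 (0.75) and 0.16 (0.67). Irf1, an interferon-induced activator of class I and immunoproteasome genes, was at -0.43 (adjusted p = 0.084), and Nlrc5, the class I transactivator, at 0.09 (adjusted p = 0.79). Interferon gamma itself was not tested, its probeset reading no more than 0.406 on any array.

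**Figure D3:**
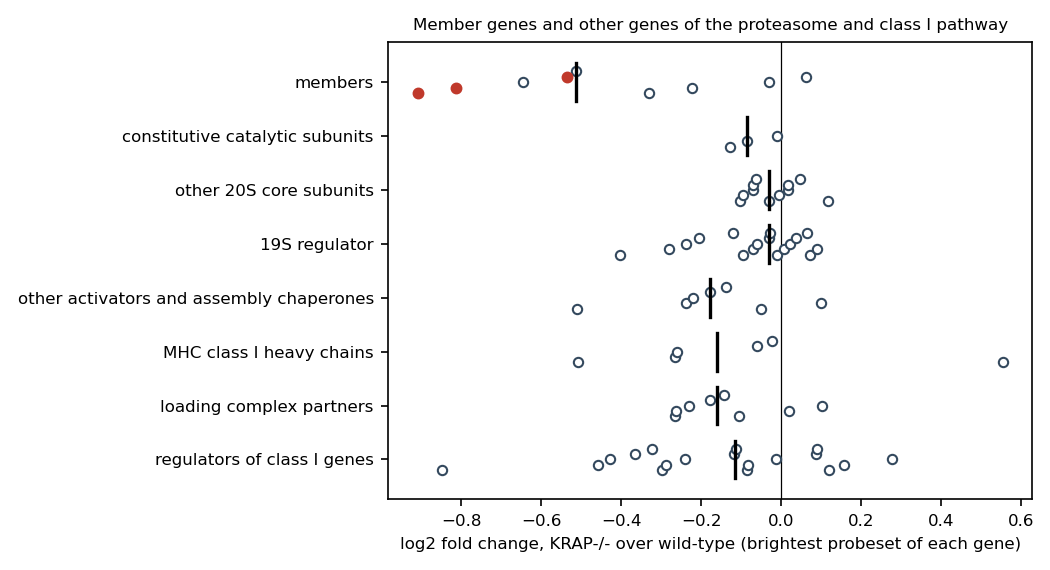
Log2 fold change of KRAP-/- over wild-type (horizontal axis) at the brightest tested probeset of each gene, for the member genes and for lists of other proteasome and class I pathway genes. Each point is a gene, filled where its limma adjusted p was under 0.05, and the vertical bar is the median of the list. The member genes have a median of -0.51 and hold the 3 filled points, while the other lists have medians between -0.18 and -0.03.

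Whole liver RNA was measured, in which fewer cells of a type and less RNA per cell cannot be told apart. Markers of immune cells, which carry the immunoproteasome without stimulation, are given here beside the member genes. All 8 Kupffer cell and macrophage markers had a log2 difference below 0, with a median of -0.37, and their summed signal was 176 to 187 in KRAP-/- and 205 to 240 in wild-type livers, without overlap. Clec4f, a lectin of Kupffer cells, fell from 33.5 ± 1.67 to 23.1 ± 0.805 (log2 difference -0.54, SE 0.09, limma adjusted p = 0.025, 0.071 without division by the array median), and the other 7 did not pass. At an unadjusted p under 0.05, 4 of the 8 were lower, against 9.3% of all tested probesets, a share that stands beside the counts of the marker lists below as well.

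The 4 tested B cell markers had a median of -0.83 and a summed signal of 6.94 to 10.9 in KRAP-/- and 17.5 to 35.2 in wild-type livers, a gap that Ighm alone carried. The other 3 did not pass, Cd79b, a B cell receptor chain, being at -0.13, and their sum overlapped between the genotypes, at 2.76 to 4.47 in KRAP-/- and 4.27 to 5.37 in wild-type livers. Ighm, the immunoglobulin mu heavy chain, fell: its brightest probeset read 19.8, 29.8 and 13.1 in wild-type and 2.47, 6.43 and 7.27 in KRAP-/- livers. The genotypes did not overlap, and the log2 difference was -2.02 (SE 0.32, adjusted p = 0.019), or -1.53 without pair 1 and -2.61 without pair 3. Of 8 tested Ighm probesets 2 passed, both lower. The other 6 ranged from -0.36 to 1.82, with 4 above 0, of which 1 was higher at an unadjusted p under 0.05.

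T and NK cell markers were dim. Of 10 listed, 5 were tested and 0 passed limma, with 1 lower at an unadjusted p under 0.05. Their median was -0.02, with Nkg7, a granule protein of cytotoxic cells, farthest from 0 (-1.73, adjusted p = 0.26). Nkg7 was dim and reached the limit for testing through its wild-type signals, with a mean of 0.450 in KRAP-/- and 1.15 in wild-type livers. Its log2 difference was -0.85 without pair 3. The summed signal of the 5 tested T and NK cell markers overlapped, at 3.72 to 4.61 in KRAP-/- and 4.22 to 5.85 in wild-type livers. Over all 9 with a probeset, 4 of them too dim to test, it was 5.08 to 5.60 and 5.64 to 7.47. The defining markers Cd3e and Cd4 reached no more than 0.422 and 0.218 on any array and Cd8b1 and Ncr1 no more than 0.931 and 0.637, and the mean of each was below 0.5.

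Dendritic cell and MHC class II markers had 7 tested genes with a median of -0.22 and none past the threshold (1 lower at an unadjusted p under 0.05), Itgax being farthest from 0 (-0.49, adjusted p = 0.56). The summed signal over all 8 with a probeset overlapped between the genotypes, at 89.7 to 95.9 in KRAP-/- and 87.2 to 111 in wild-type livers. The 6 endothelial markers, with 0 at an unadjusted p under 0.05, had a median of -0.07 (Lyve1 at -0.20, adjusted p = 0.66) and summed to 85.3 to 89.1 in KRAP-/- and 91.8 to 103 in wild-type livers. Of the 6 only Clec4g was without overlap by itself, at 39.2 to 41.4 in KRAP-/- and 43.9 to 47.8 in wild-type livers (log2 difference -0.19, limma adjusted p = 0.35). Stab2, Kdr and Pecam1 were at 0.01, -0.05 and 0.01.

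None of the remaining marker lists had a gene past the threshold, and at an unadjusted p under 0.05 the stellate cell and adipocyte lists had 1 lower gene each. Stellate cell markers had a median of -0.27 over 5 genes (Lrat at -0.66, adjusted p = 0.070) and summed signals of 62.7 to 67.2 in KRAP-/- and 58.0 to 72.9 in wild-type livers. Bile duct markers had a median of -0.52 over 4 dim genes (Krt7 at -0.89, adjusted p = 0.65) and summed signals of 3.82 to 5.43 and 5.16 to 6.35. Of the adipocyte markers only Adipoq was tested (-2.51, adjusted p = 0.25), and the summed signals over the 3 with a probeset were 0.464 to 0.923 and 0.860 to 3.04. Adipoq was dim and reached the limit for testing through its wild-type signals, 2.20, 0.694 and 0.444, against 0.144, 0.0318 and 0.253 in KRAP-/- livers. The 5 hepatocyte markers had a median of 0.01 (Tdo2 at 0.15, adjusted p = 0.38) and summed signals of 3019 to 3363 and 3034 to 3125. Over the tested markers, the Kupffer cell sum, the brightest Ighm probeset and the endothelial sum did not overlap between the genotypes. Clec4g was the only endothelial marker without overlap by itself. The dim Adipoq, the only tested adipocyte marker, did not overlap either. Single markers of other lists, such as Cd8a, Lrat and Sox9, did not overlap either, with KRAP-/- lower. Among all tested probesets 12.3% had no overlap with KRAP-/- lower. The part of any of these cells in the lower signals of Psmb8, Psmb9 and Psmb10 was not tested.

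**Figure D4:**
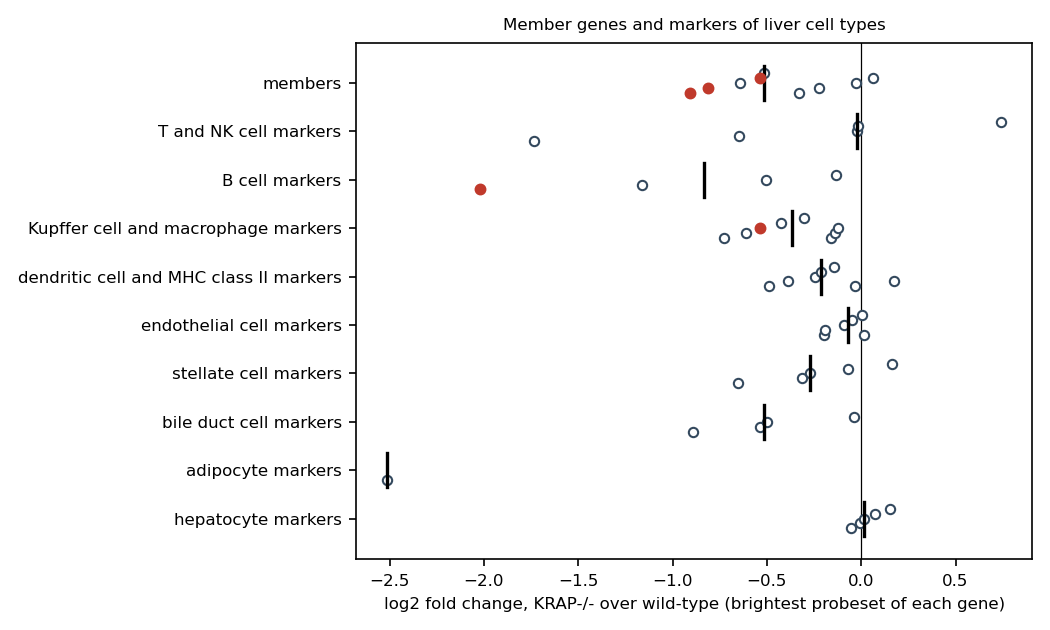
Log2 fold change of KRAP-/- over wild-type (horizontal axis) at the brightest tested probeset of each gene, for the member genes and for markers of liver cell types. Points are genes, filled where the limma adjusted p was under 0.05, and vertical bars are medians. Ighm at -2.02 and Clec4f at -0.54 are the filled points outside the member genes, all Kupffer cell markers lie below 0, and the hepatocyte markers lie around 0.

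The mean profile of the 9 genes (log2, each centred over the arrays) was 0.31, 0.23 and 0.11 in wild-type mice 1, 2 and 3 and -0.09, -0.21 and -0.35 in their littermates, so that within each genotype mouse 1 was highest and mouse 3 lowest. Among 11036 other genes whose mean signal was 1 or more, the 5 most like this profile over the 6 arrays were Lrpap1 (Pearson r = 0.999), Gbp7 (0.996), Ifitm3 (0.995), Rassf6 (0.993) and Rab4b (0.992), a description of 6 points that share the genotype. Being chosen for this profile, they had to be lower in KRAP-/- livers, and their values are given without a test. Gbp7, an interferon-inducible GTPase, read 15.7, 13.4 and 12.0 in wild-type and 9.58, 8.11 and 7.32 in KRAP-/- livers (log2 difference -0.71). Ifitm3, an interferon-inducible membrane protein that restricts virus entry, read 356, 334 and 311 in wild-type and 270, 235 and 224 in KRAP-/- livers (log2 difference -0.46). Lrpap1, a chaperone of LDL receptor family proteins, had a log2 difference of -0.35, Rassf6 of -0.24 and Rab4b of -0.40.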

How the data were processed

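The authors prepared biotin-labelled cRNA from liver RNA of 3 littermate pairs and deposited, per the labels, GCOS signal intensity values of 6 Affymetrix Mouse Genome 430 2.0 arrays on a linear scale. Scan dates were not used here. The deposited intensities were divided by the median of their array, floored at 0.1 and taken to log2, and 64 control probesets were left out. Probesets with a mean of at least 0.5 (28531 of 45037) were fitted with limma 3.58.1 in R 4.3.3. The fit held a term for each litter as a block and moderated the variances along an intensity trend, and p-values were adjusted over all of them (Benjamini-Hochberg, two-sided, threshold 0.05). The script was tested on simulated data. The numbers of the mice pair the arrays because the series' design names them as littermates. The deviations of same-numbered arrays correlated at only 0.043, 0.0095 and -0.012. The array annotation gave 1 gene for 34945 probesets, several for 932 and none for 9160. The number of arrays limits the precision.

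The members and gene lists were chosen with earlier results of these data known. The text names all members and, of each list, up to 3 genes that passed or else the gene farthest from 0. Psmb5, Psmb6, Psmb7, H2-K1, H2-D1, H2-M3, Irf1, Nlrc5, Socs1, Rfx5, Rfxap, Clec4g, Stab2, Kdr, Pecam1, Cd8a and Sox9 were named after their values were seen. The 5 genes with the nearest profile were taken by Pearson correlation. Other scalings, floors and limits, fits without the block or the trend, and leaving out each pair were tried. Sequences come from RefSeq tables for GRCm38.p6.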

Additional observations from a re-analysis of the deposited data

How the results depend on the processing

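The count of member probesets called lower by limma was 3. It was 3 with a floor of 0.01, with a pseudocount of 0.25 and with a limit of 1 on the mean, and 2 without division by the array median and after quantile normalisation, where Psmb8 and Psmb9 stayed past the threshold. Without the replicate block for littermates it was also 2, and leaving out each pair gave 2 to 3. With no limit on dim probesets it was 0, as for all 45037 probesets, although 8 members had an unadjusted p under 0.05. Without the intensity trend it was 0, again as for all probesets, with 5 at an unadjusted p under 0.05. In these settings the adjusted p of Psmb8 and Psmb9 was 0.38 and 0.42 respectively, and the cause was not tested. No member was called higher in any setting. A ratio of at least 2 in each pair took 0 members as lower, and the 1.5-fold filter took 2 to 3 with a pair left out. Of 142 alternative log2 differences of the 13 probesets, 129 kept their direction and side of the threshold, 11 (of Psmb8, Psmb9 and Psmb10) no longer passed and 2 changed sign, both of the brighter B2m probeset, which was at 0.020 without division by the array median and at -0.065 to 0.031 with a pair left out. Dim probesets, among them 3 of Tap1, the second of Psmb8 and most T cell markers, allow no firm statement.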
